A study of Danio rerio with 68 samples.

Results

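Skin of male zebrafish was compared between 36 and 12 months of age in control tanks, over all genes, by RNA-seq. The comparison took every control skin of the series: 13 of its 24 skin libraries and of its 68 libraries in all, of which 7 came from 36-month and 6 from 12-month fish. The study kept male zebrafish in tanks with rotenone, an inhibitor of mitochondrial complex I, or with its solvent DMSO, and sequenced brain, liver and skin. The skins used here came from 3 fish of 12 months sampled after 3 weeks, 3 of 12 months after 8 weeks, 3 of 36 months after 3 weeks and 4 of 36 months after 8 weeks. Per the treatment protocol all of them had DMSO in the tank water, renewed with the water changes, although the samples' own treatment label reads none. No genotype or strain is given. The fish of the 2 ages are different animals of unstated stocks, so that the effects of age, of descent and of how they were raised cannot be told apart. The number of tanks is not given either, and p-values therefore measure the spread between fish.

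Zebrafish skin is a thin, living epithelium over a dermis that carries the scales. The epidermis is held by keratins and desmosomes and includes mucous cells and resident immune cells, and the dermis holds fibroblasts, collagen, pigment cells and scale-forming bone cells. The skin secretes mucins and lectins that trap or bind microbes, and its cells use inflammasome sensors and caspases, antigen presentation and interferon signalling against infection. In bulk RNA, fewer cells of a type and less RNA per cell cannot be told apart.

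The 13 libraries held between 27410098 and 32477797 counts and 25313 to 27186 genes with a count, and 22184 of the 32677 genes of the table passed the filter on low counts. Levels are given as CPM, the counts of a gene relative to a library total scaled by the trimmed mean of M-values (TMM). Epidermal and dermal markers were high at both ages. The keratin krt5 had a mean of 21300 CPM at 12 and 27800 CPM at 36 months, the basal epidermal factor tp63 had 368 and 442 CPM, and the collagen col1a1a had 5880 and 1500 CPM. Some libraries stood apart in genes of other tissues. Skeletal muscle genes took 18.1% of the counts of 36-month 3-week replicate 3 and 1.43% to 6.34% of the others. Testis and germ cell genes took 0.304% in 12-month 3-week replicate 2, and 0.00491% to 0.063% in the other libraries. Hepatocyte genes took 2.63% in 12-month 3-week replicate 1 and 0.108% to 0.289% elsewhere. Results that rest on these libraries are given with and without them.

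Of the genes called by edgeR most were lower in the older skins, among them an inflammatory caspase and 2 intelectins, a balance that depended on the test. Of 22184 genes tested, 50 (0.225%) passed an adjusted p under 0.05 in edgeR's quasi-likelihood test with Benjamini-Hochberg adjustment and sampling time as a covariate: 12 were higher at 36 months (0.0541%) and 38 lower (0.171%). The largest differences were losses. Of the called genes, 20 were at least 4-fold lower and 2 at least 4-fold higher, and 10 were lower by over 4 on the log2 scale. All 50 had the same sign at 3 and at 8 weeks. They were chosen by the effect pooled over both times, which largely fixes this, so it is no separate support. In 31 of the 50 the lowest library of one age lay above the highest of the other, against 276 of all tested genes (1.24%). These 31 were 9 higher genes, against 0.604% of all genes, and 22 lower ones, against 0.64%.

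The number of calls depended on single fish. Leaving out 1 library at a time gave between 14 calls, without 12-month 8-week replicate 2, and 596 calls, without 36-month 3-week replicate 1. Without 12-month 3-week replicate 2 there were 107 calls. There were 27 calls without 12-month 3-week replicate 1, 15 and 18 without 12-month 8-week replicates 1 and 3, and 20, 18 and 16 without 36-month 8-week replicates 1, 2 and 4. DESeq2 called 1646 genes, 880 higher and 766 lower, and limma's voom fit with sample weights 1607, 709 higher and 898 lower. The share of lower genes among the calls was thus larger in edgeR's test than in either. DESeq2 called all 50 genes of the edgeR test and voom 46 of them. Before adjustment 4138 genes (18.7%) had a p under 0.05, with 2079 higher (9.37%) and 2059 lower (9.28%). Counts of list members before adjustment, given below, stand against these shares. Without the libraries rich in testis and muscle genes 2004 of 21776 genes were higher and 2027 lower. Without the library rich in hepatocyte genes as well, 1747 of 22164 were higher and 1816 lower. With muscle content as a covariate 1902 were higher and 1962 lower. In data simulated from these libraries the same test recovered 35.7% of genes changed 2-fold and 81.4% of those changed 4-fold, and called 6 unchanged genes. The simulation had no effect of time and no library rich in genes of another tissue. It changed only genes with a mean of at least 1 CPM. Its rates may therefore not hold for these skins.

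Called in every one of the 13 fits that left out 1 library were 12 of the 50 genes. They were the caspase gene caspbl, the nearby genes si:ch211-114l13.4 and si:ch211-114l13.13, the intelectin genes BX927082.1 and BX927082.2, the fatty acid elongase elovl5, rergla, msrab, BX323882.1, zgc:171497, zgc:171500 and si:ch1073-185p12.2. Only si:ch1073-185p12.2 among the 12 was higher at 36 months. Genes with a clone or accession as their name fell outside the rule for naming genes and are described because of their values.

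**Figure D1:**
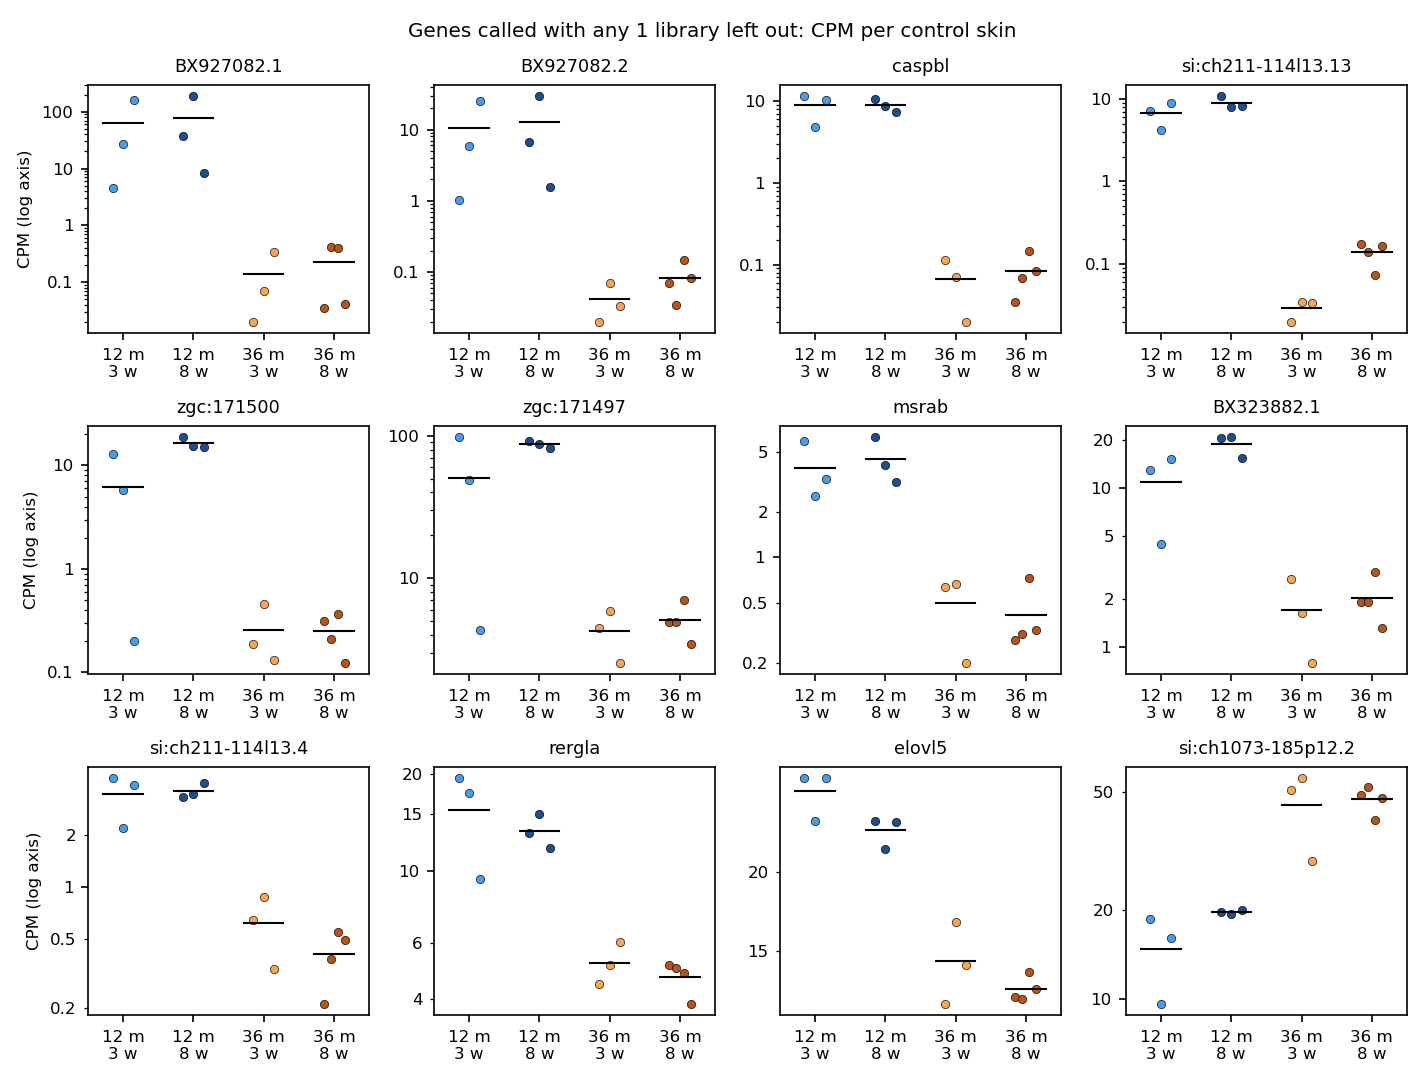
Expression of the 12 genes called in every fit that left out 1 library, as CPM on log axes, with 1 point per control skin and a line at each group's mean; libraries with 0 counts are drawn at the bottom of the axis. The 12-month and 36-month skins are separate for caspbl, with 4.92 to 11.7 CPM against 0 to 0.146 CPM, while 1 young skin of zgc:171497, at 4.34 CPM, lies among the old ones.

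An inflammatory caspase and a gene close to it were near 0 in every old skin. Caspbl belongs to the inflammatory caspase family, proteases that act downstream of inflammasome sensors. Its level in the 12-month skins was 4.92 CPM at the lowest, 9.6 CPM at the median and 11.7 CPM at the highest, and in the 36-month skins 0, 0.0699 and 0.146 CPM. The 6 young skins together held 1617 counts and the 7 old skins 14, a 138-fold difference in CPM. The groups did not overlap, and every old skin was near 0. Caspbl fell by 6.88 on the log2 scale (SE 0.45, adjusted p = 1.71e-05, edgeR's quasi-likelihood test with Benjamini-Hochberg adjustment).

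In the order of genes on the GRCz12tu assembly, si:ch211-114l13.13 lies 1 gene away from caspbl, and si:ch211-114l13.4, now named nlrc10 in the name table, lies next to it. Nlrc10 names a member of the NOD-like receptor family, whose members in general act as sensors inside the cell. The level of si:ch211-114l13.13 was 4.22, 8.06 and 10.9 CPM (lowest, median and highest) at 12 months and 0, 0.073 and 0.175 CPM at 36 months. It was at 1424 counts in the young and 17 in the old skins, with no overlap, and fell by 6.62 (log2, SE 0.43, edgeR adjusted p = 1.71e-05). The level of si:ch211-114l13.4 was 2.2, 3.68 and 4.29 CPM at 12 months against 0.211, 0.495 and 0.874 CPM at 36 months. It fell by 2.82 (log2, SE 0.30, edgeR adjusted p = 0.00276), again with separate groups, but it stayed detected in every old skin.

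Other genes named for the same clone had smaller differences that did not pass the test. The protein-coding si:ch211-114l13.12 differed by -1.37 on the log2 scale (SE 0.29, edgeR adjusted p = 0.0652). For si:ch211-114l13.9 the difference was -0.41 (SE 0.28, edgeR adjusted p = 0.454). For si:ch211-114l13.10, now named nlrp3 in the name table, it was -0.18 (SE 0.14, edgeR adjusted p = 0.515), at a median of 7.64 CPM at 12 and 6.39 CPM at 36 months. In an edgeR fit over the control libraries of all tissues, si:ch211-114l13.1 differed by -0.835 in skin (SE 0.394, edgeR adjusted p = 0.267). In brain it fell by 7.1 in that fit (log2, SE 0.427, edgeR adjusted p = 2.85e-11). These genes were chosen after their values were seen. Among 47 tested NOD-like receptor gene copies of a wider list, 5 were higher and 9 lower at an unadjusted p under 0.05 (10.6% and 19.1%, against 9.37% and 9.28% of all genes). Their median log2 difference was 0.034 against -0.027 over all genes.

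A pair of intelectin genes and a mucin gene fell, all 3 described because of their values. Intelectins are secreted lectins that bind microbial glycans. The intelectin gene BX927082.1, now named itln4 in the name table, reached 4.57 CPM at the lowest, 31.9 CPM at the median and 191 CPM at the highest in the young skins, and 0, 0.0699 and 0.416 CPM in the old. Its neighbour in name, BX927082.2, had 1.03, 6.28 and 29.8 CPM against 0, 0.0699 and 0.146 CPM. In both genes every young skin lay above every old one, although the young skins spanned a wide range among themselves.

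The counts of BX927082.1 were 13061 in the young and 37 in the old skins, and those of BX927082.2 were 2130 and 12. BX927082.1 fell by 8.57 (log2, SE 1.13, edgeR adjusted p = 0.0109) and BX927082.2 by 7.52 (log2, SE 0.96, edgeR adjusted p = 0.00992). Voom's fit gave adjusted p = 0.173 and 0.19 for them, so that these calls depended on the test. How similar the copies are was not measured here, and if they share sequence, counts could be split between them.

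The gel-forming mucin CR854881.2 (muc5.1), a main component of mucus, was at 81.2, 152 and 218 CPM in the young skins and at 10.1, 36.8 and 65.3 CPM in the old. The highest old skin lay below the lowest young one. It fell by 2.02 (log2, SE 0.35, edgeR adjusted p = 0.0424), and it passed in 4 of the 13 fits with 1 library left out. It was the called member of a list of 19 tested mucous and club cell genes, in which 3 were higher and 3 lower before adjustment and the median difference was 0.04.

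Called genes of antigen presentation, lymphocytes and chemoattraction lay in both directions. The class I histocompatibility gene CABZ01031754.1, mhc1uma in the name table, was present in some young fish and almost absent from the old. Its counts in the 12-month skins were 244, 0 and 0 at 3 weeks and 350, 369 and 247 at 8 weeks, and the 7 old skins held 1 count in all. The gene CABZ01031753.1 had 277, 1 and 0 counts, then 220, 278 and 219, and again 1 count in all the old skins. Both were in the same 4 young fish and missing or at 1 count in 12-month 3-week replicates 2 and 3, so the ages overlapped. Each had an edgeR adjusted p of 0.0424. Because the old group is at the floor of detection, no fold is given.

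AL929239.1 was another gene that, among the control skins, was high in some young ones only. It had 0.0708 CPM at the lowest, 4.16 CPM at the median and 13.6 CPM at the highest in the young and 0.0377 to 0.14 CPM in the old skins. It fell by 6.03 (log2, SE 1.02, edgeR adjusted p = 0.0424), and voom's adjusted p was 0.302. Of 51 tested genes of antigen presentation, 5 were higher and 5 lower before adjustment, 9.8% each. These shares were near those of all genes, 9.37% and 9.28%. The median difference of the 51 genes was -0.042.

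A GIMAP gene and a chemokine gene were higher. The gene si:ch1073-185p12.2 belongs to the GIMAP family, GTPases that in mammals act in lymphocyte survival. Its level was 9.63, 19 and 19.9 CPM at 12 months and 29.2, 48.9 and 55.8 CPM at 36 months. All old skins lay above all young skins, and the gene rose by 1.43 (log2, SE 0.18, edgeR adjusted p = 0.00992). The chemokine gene si:dkey-25o1.5, ccl34b.4 in the name table, had 2.71, 3.65 and 5.31 CPM against 7.89, 9.41 and 25.3 CPM. It too was without overlap, and rose by 1.78 (log2, SE 0.32, edgeR adjusted p = 0.0496). It was the called member of 54 chemokine and receptor genes, in which 6 were higher and 8 lower before adjustment (11.1% and 14.8%, against 9.37% and 9.28% of all genes).

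Leukocyte lists had medians between -0.26 and 0.076. Of 45 T cell genes, none were higher and 6 lower at an unadjusted p under 0.05 (13.3%, against 9.28% of all genes). The median log2 difference was -0.26, with 0.15 at 3 weeks and -0.55 at 8 weeks. Without 12-month 8-week replicate 3 it was -0.05, and without 36-month 8-week replicate 3 it was -0.16. The medians were -0.069 for 47 B cell genes, -0.029 for 63 macrophage genes and 0.076 for 34 neutrophil genes. The inducible nitric oxide synthase nos2a differed by -2.58 (SE 0.68, edgeR adjusted p = 0.0932). It had 39.6, 365 and 774 CPM in the young and 9.69, 40.6 and 249 CPM in the old skins, and the groups overlapped.

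Interferon-response genes leaned upward. Of 65 tested genes, 51 were above 0, with 18 higher and 1 lower before adjustment, and the median log2 difference was 0.35. Without the libraries rich in testis and muscle genes, 29 were higher and 1 lower, with a median of 0.39. Without 36-month 3-week replicate 2 the median was 0.18. Single members had differences of either sign. The antiviral GTPase mxb differed by 1.57 (SE 0.36, edgeR adjusted p = 0.0712) and its family member mxd by -1.14 (SE 0.22, edgeR adjusted p = 0.054). The same list had a median of 1.35 in brain and 0.74 in liver of the same fish.

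Among metabolic genes, the lowest adjusted p belonged to a fatty acid elongase. Elovl5 lengthens polyunsaturated fatty acids. Its level was 21.8, 24.1 and 28.2 CPM at 12 months and 12.4 to 16.7 CPM at 36 months. The groups were apart and the spread within each was small. It fell by 0.86 (log2, SE 0.092, edgeR adjusted p = 0.00276). Of 47 genes of fatty acid and triglyceride synthesis, 2 were higher and 8 lower before adjustment, with a median of -0.08.

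The gene msrab (its name in the name table; the count table gives a clone-type name) is named for methionine sulfoxide reductase A, an enzyme that repairs oxidised methionine. It had 2.57, 3.7 and 6.31 CPM in the young and 0.2, 0.33 and 0.73 CPM in the old skins. No old skin reached the lowest young one, and it fell by 3.22 (log2, SE 0.37, edgeR adjusted p = 0.0037). Cytosolic aconitase aco1, which also serves as an iron-regulatory RNA-binding protein, had 22.6, 27.3 and 36.3 CPM against 12.8, 15.1 and 18.4 CPM. It fell by 0.86 (log2, SE 0.13, edgeR adjusted p = 0.0215), also without overlap. Among 77 antioxidant and glutathione genes 16 were higher and 5 lower before adjustment, with a median of 0.12 that was 0.01 without 36-month 3-week replicate 2, 0.05 without 12-month 3-week replicate 2 and 0.2 without 36-month 3-week replicate 3.

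Cholesterol synthesis genes leaned downward in a way that differed between fish of one age. Of 34 tested genes 32 were below 0 and the median log2 difference was -0.65, but 5 were lower and 1 higher at an unadjusted p under 0.05. Their share of all counts was 0.937%, 0.919% and 1.72% in the young skins at 3 weeks and 1.76%, 1.49% and 1.8% at 8 weeks. In the old skins it was 0.119%, 1.39% and 0.109% at 3 weeks and 1.9%, 1.15%, 0.702% and 0.496% at 8 weeks. Old skins thus held both the lowest and the highest shares, and the median moved between -1.44 and -0.44 as single libraries were left out.

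Among the remaining named calls, 3 cell adhesion genes fell. The collagen-binding integrin ITGA2 (1 of 2) had 34.2, 40.5 and 54.4 CPM at 12 months and 14.9, 25.1 and 31.2 CPM at 36 months, and fell by 0.81 (log2, SE 0.13, edgeR adjusted p = 0.0293). The adhesion molecule alcamb had 58.7, 63.3 and 73.6 CPM against 28.2, 38.5 and 47.6 CPM, and fell by 0.67 (log2, SE 0.12, edgeR adjusted p = 0.0424). Both were without overlap. The adhesion gene sdk2b, at medians of 13.2 CPM against 7.19 CPM, fell by 0.75 (log2, SE 0.14, edgeR adjusted p = 0.0496) with overlapping groups.

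Several cytoskeletal and trafficking genes also fell. Both copies of the microtubule-binding EML4 fell, by 1.06 for EML4 (2 of 2) and by 0.87 for EML4 (1 of 2) on the log2 scale. Cyfip2, a subunit of the WAVE complex that drives actin branching, was at 8.68, 9.22 and 9.43 CPM in the young and 3.8, 4.76 and 6.89 CPM in the old skins. Its groups were separate, and it fell by 0.83 (log2, SE 0.15, edgeR adjusted p = 0.0496). Dennd1b, which activates Rab GTPases, fell by 1.38 (log2, SE 0.19, edgeR adjusted p = 0.012). The neurotrophin-receptor scaffold kidins220a fell by 0.99 (log2, SE 0.15, edgeR adjusted p = 0.025) and ESYT2 (1 of 3), a tether between endoplasmic reticulum and plasma membrane, fell from a median of 17.9 CPM to 7.59 CPM (edgeR adjusted p = 0.0496).

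The other named genes that fell were CASKIN2 (3 of 4) by 1.65, SGPP1 (1 of 2) by 0.78, rev3l by 0.68 and nfixa by 0.65 on the log2 scale. FAM46A (1 of 2), with a mean below 1 CPM, fell outside the naming rule and is described because of its values. It fell by 1.48 on the log2 scale, with 206 counts in the young and 78 in the old skins. SGPP1 removes the phosphate from sphingosine 1-phosphate, rev3l is the catalytic subunit of DNA polymerase zeta and nfixa is a transcription factor. Rergla, of the Ras-like family, had 9.45, 14.1 and 19.4 CPM in the young and 3.88, 4.99 and 6.03 CPM in the old skins. It fell by 1.53 (log2, SE 0.17, edgeR adjusted p = 0.00276) and its groups did not overlap. Symbols that carry a copy number in brackets mark similar gene copies, and their counts are uncertain where reads could be split between copies.

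Of the named calls that rose, 4 had gene symbols under the naming rule. The 14-3-3 protein gene ywhaqb had 207, 245 and 273 CPM at 12 months and 318, 436 and 552 CPM at 36 months, and rose by 0.81 (log2, SE 0.14, edgeR adjusted p = 0.0496). PFDN4, a subunit of the prefoldin chaperone, had 19, 19.9 and 21.6 CPM against 25.1, 29.9 and 34.7 CPM and rose by 0.53 (log2, SE 0.091, edgeR adjusted p = 0.0424). The mitochondrial ribosomal protein gene MRPL42 had 5.96, 6.54 and 7.04 CPM against 8.44, 11.2 and 12.6 CPM and rose by 0.75 (log2, SE 0.12, edgeR adjusted p = 0.0308). All 3 were without overlap. The fourth, listed as slc16a8 in the table and as pdap1a in the name table for the same identifier, rose by 0.57 (log2, SE 0.095, edgeR adjusted p = 0.0409).

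Of the clone-named genes that rose, the tetraspanin gene zgc:100919 (tspan36 in the name table) had 17.9, 20.5 and 23 CPM in the young and 26.6, 36.5 and 50.7 CPM in the old skins. It rose by 0.87 (log2, SE 0.16, edgeR adjusted p = 0.0496) and its groups were apart. AC024175.4, which the table classes as a mitochondrial ribosomal RNA, had 266, 436 and 585 CPM against 620, 1940 and 2680 CPM. It rose by 1.81 (log2, SE 0.32, edgeR adjusted p = 0.0496) without overlap. The processed transcript si:dkeyp-1h4.9 had 206, 727 and 1050 CPM against 1520, 2580 and 3730 CPM, again without overlap, and rose by 1.92 (log2, SE 0.31, edgeR adjusted p = 0.0342). These 3 were chosen after their values were seen.

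The remaining clone-named genes that fell were chosen after their values were seen. BX323882.1 had 4.45, 15.3 and 21 CPM in the young and 0.799, 1.91 and 2.99 CPM in the old skins, and fell by 2.96 (log2, SE 0.34, edgeR adjusted p = 0.00374). The gene si:ch211-9d9.1 had 13.8, 37.5 and 60.6 CPM against a median of 6.97 CPM, and fell by 2.30 (log2, SE 0.32, edgeR adjusted p = 0.0135). Both were without overlap. CT583625.2 had 0.102, 2.33 and 4.14 CPM against 0, 0.0693 and 0.246 CPM, and fell by 4.52 (log2, SE 0.72, edgeR adjusted p = 0.0317). Its low young skin was again 12-month 3-week replicate 3. BX927114.3 fell by 3.16, BX571811.1 by 2.18, si:dkey-17e16.9 by 2.14 and si:ch1073-188e1.1 by 2.04 on the log2 scale.

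The clone-named genes si:ch211-236p5.3 and si:dkey-85k15.6 rose. The first had 3.19, 4.04 and 6.94 CPM at 12 months and 4.29, 26.4 and 34.6 CPM at 36 months, and rose by 2.41 (log2, SE 0.39, edgeR adjusted p = 0.0336). The second had 1.59, 2.44 and 3.19 CPM against 4.63, 8.51 and 19.1 CPM, and rose by 1.89 (log2, SE 0.30, edgeR adjusted p = 0.0301). The first overlapped between the ages and the second did not.

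Collagen and other matrix genes were mostly below 0, and no collagen passed the adjusted threshold in edgeR's test. DESeq2 called 11 collagens lower and 1 higher, and voom 2 lower. Over all 22184 genes DESeq2 called 766 lower and 880 higher, and voom 898 lower and 709 higher. Of 59 tested collagens 47 were below 0, with 19 lower and 1 higher at an unadjusted p under 0.05, and the median log2 difference was -0.38. The fibrillar collagen col1a2 had 395, 4990 and 8940 CPM at 12 months and 450, 1360 and 2260 CPM at 36 months. The median old skin was below the median young one, but the lowest young skin lay below every old skin. The difference was -2.06 (SE 0.58, edgeR adjusted p = 0.103). For col1a1a it was -2.12 (SE 0.62, edgeR adjusted p = 0.112).

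Collagens took 3.64%, 2.52% and 0.378% of the counts in the young skins at 3 weeks and 2.49%, 3.91% and 1.64% at 8 weeks. In the old skins they took 0.465%, 0.813% and 0.528% at 3 weeks and 1.1%, 1.13%, 1.14% and 0.524% at 8 weeks. All young skins but 1 were above all the old ones, and 12-month 3-week replicate 3 was the lowest of the 13. Without that library the median over the collagens was -0.44. Without the libraries with hepatocyte, testis or muscle counts it was -0.24, and 5 collagens were lower and 2 higher before adjustment. Col17a1b, a collagen of the hemidesmosomes that anchor the basal epidermis, stood on the other side of 0, at 1.12 (SE 0.30, edgeR adjusted p = 0.0969).

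Among 62 matrix proteases and inhibitors 21 were lower and 4 higher before adjustment, with a median of -0.29. The called member was ADAMTS2 (2 of 2), the enzyme that removes the amino-terminal propeptide of procollagen. It had 3.29, 7.76 and 10.1 CPM in the young and 1.85, 2.06 and 5.11 CPM in the old skins, with overlap through 36-month 8-week replicate 3. It fell by 1.48 (log2, SE 0.27, edgeR adjusted p = 0.0496). Of 106 matrix glycoproteins and proteoglycans 17 were lower and 3 higher before adjustment (16.0% and 2.83%, against 9.28% and 9.37% of all genes). Their median was -0.21, and -0.13 without 36-month 3-week replicate 2 or 36-month 8-week replicate 3. Without the libraries with hepatocyte, testis or muscle counts, 8 of them were lower and 7 higher, with a median of -0.066. In that subset 14 matrix proteases and inhibitors were lower and 4 higher, with a median of -0.086. Elastin elna differed by -1.17 (SE 0.24, edgeR adjusted p = 0.0619).

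Fibroblast and scale genes showed values of the same sign. The fibroblast list includes col1a2, so it is not separate from the collagen list. Of 39 fibroblast genes 12 were lower and 3 higher before adjustment (median -0.22), and of 52 bone and scale genes 15 were lower and 3 higher (median -0.34). Without the libraries with hepatocyte, testis or muscle counts, 2 fibroblast genes were lower and 4 higher (median -0.145). Of the bone and scale genes 13 were then lower and 1 higher (median -0.165). For fibroblast genes DESeq2 called 10 lower and 1 higher, and voom 0 lower and 1 higher. Over all 22184 genes DESeq2 called 766 lower and 880 higher, and voom 898 lower and 709 higher. Fibroblast genes and collagens took 4.02% and 3.64% of counts in 12-month 3-week replicate 1, and 0.49% and 0.378% in replicate 3. Col1a2 is counted in both shares. The called bone gene went against the bone and scale list. Ocstamp, which is needed for the fusion of osteoclast precursors, had 0.0324, 0.052 and 0.231 CPM at 12 months and 0.173, 0.866 and 2.67 CPM at 36 months, from 19 counts in the young and 177 in the old skins. It rose by 3.22 (log2, SE 0.54, edgeR adjusted p = 0.0409), and the ages overlapped at these low levels. The cartilage and skeletal factor sox9a differed by -0.75 (SE 0.17, edgeR adjusted p = 0.0711).

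**Figure D2:**
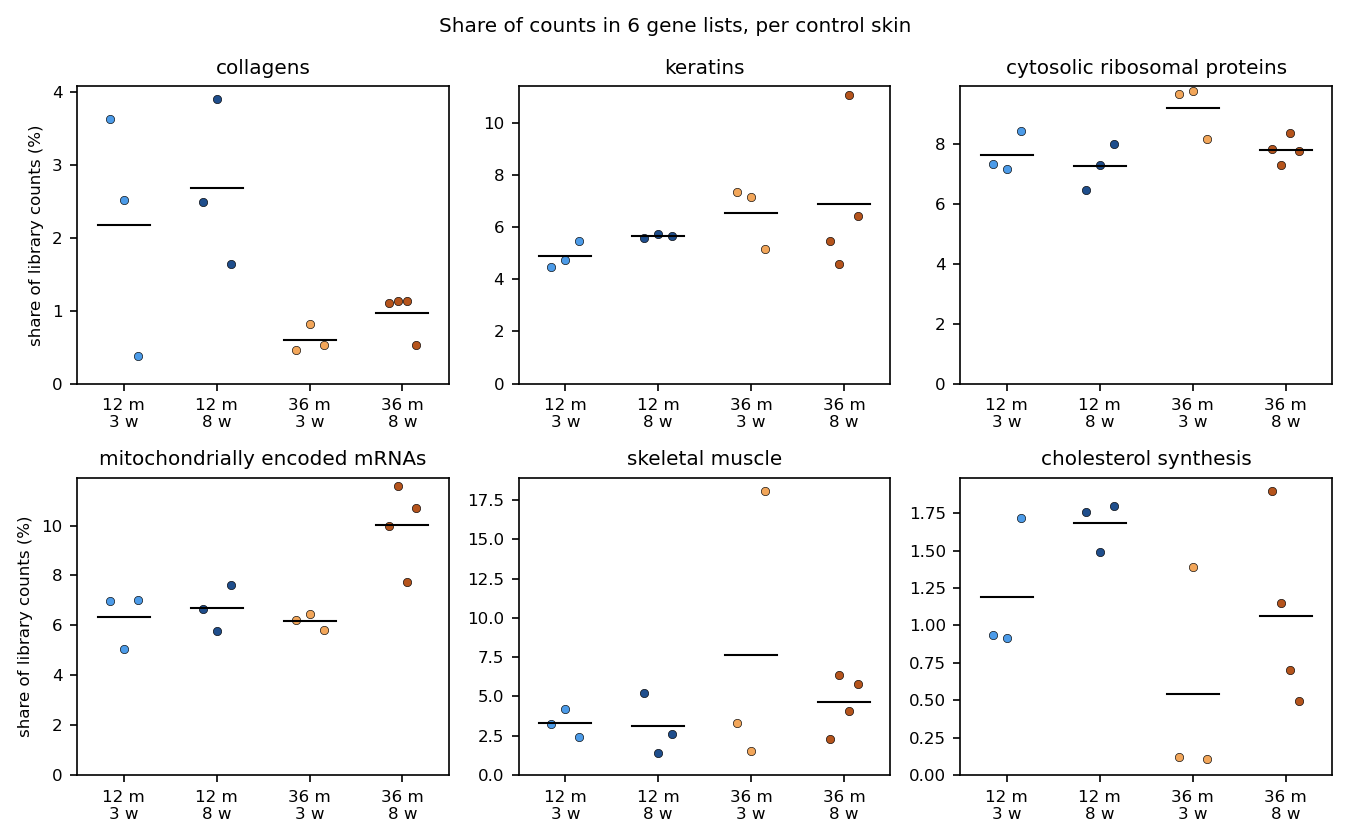
Share of all counts taken by 6 gene lists in each control skin, in percent, with 1 point per library and a line at the group mean. Collagens were lowest in 1 young skin, at 0.378%, and skeletal muscle was highest in 1 old skin, at 18.1%.

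Epidermal structural genes leaned upward. Of 26 keratin genes 24 were above 0, with 12 higher and 1 lower at an unadjusted p under 0.05, and the median log2 difference was 0.63 (range 0.57 to 0.73 with 1 library left out). Without the libraries with hepatocyte, testis or muscle counts, 9 were higher and 1 lower (median 0.47). No keratin passed the adjusted threshold in edgeR's pooled test, where DESeq2 called 8 higher and voom 3 higher and 1 lower. Over all 22184 genes DESeq2 called 880 higher, and voom 709 higher and 898 lower. Krt18, a keratin of simple epithelia, had 196, 286 and 449 CPM in the young and 409, 585 and 1350 CPM in the old skins, with a difference of 1.18 (SE 0.23, edgeR adjusted p = 0.054). Keratins took 4.48% to 5.76% of the counts in the young and 4.61% to 11.1% in the old skins, with the highest share in 36-month 8-week replicate 3.

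Of 28 genes of desmosomes and the cornified envelope 9 were higher and 1 lower before adjustment, with a median of 0.40. Without the libraries with hepatocyte, testis or muscle counts, 3 were higher and 0 lower (median 0.33). Over all 22164 genes of that subset 1747 were higher and 1816 lower. The desmosomal plakophilin pkp1 differed by 0.97 (SE 0.26, edgeR adjusted p = 0.0955). Tight junctions did not share this lean, since of 43 claudin and junction genes 1 was higher and the median was -0.036. Ionocyte genes, which mark cells that move ions across the skin, were split, with 18 of 35 above 0 and 17 below. Before adjustment 4 were higher (11.4%, against 9.37% of all genes) and 0 lower. Their median was 0.21, with 0.27 at 3 weeks and -0.34 at 8 weeks, and -0.04 without 36-month 3-week replicate 3. Carbonic anhydrase ca2 differed by 0.91 (SE 0.18, edgeR adjusted p = 0.054).

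Genes of the protein synthesis machinery were higher by small amounts in nearly every member. All 85 cytosolic ribosomal protein genes were above 0, and 80 had an unadjusted p under 0.05. None passed the adjusted threshold in edgeR's test, where DESeq2 called 66 and voom 10, all higher. Over all 22184 genes DESeq2 called 880 higher and voom 709. The median log2 difference of the 85 genes was 0.36. Without the libraries with hepatocyte, testis or muscle counts, 56 were higher before adjustment (median 0.28). The 85 genes took 7.33%, 7.17% and 8.45% of the counts in the young skins at 3 weeks and 6.47%, 7.31% and 8.01% at 8 weeks. In the old skins they took 9.7%, 9.79% and 8.18% at 3 weeks and 7.84%, 7.3%, 8.38% and 7.77% at 8 weeks. The summed shares therefore overlapped between the ages, with the highest 2 in old skins at 3 weeks. As a member, rplp1 had 888, 996 and 1180 CPM against 1190, 1570 and 2040 CPM, with no overlap and a difference of 0.61 (SE 0.13, edgeR adjusted p = 0.0669).

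All 80 mitochondrial ribosome genes were above 0 as well, with 60 at an unadjusted p under 0.05 and a median of 0.43, and MRPL42 was the called member. Without the libraries rich in testis and muscle genes 42 were higher before adjustment (median 0.36). Without the library rich in hepatocyte genes as well, 36 were higher (median 0.40). Respiratory chain genes had medians of 0.41 for 55 of complex I and 0.45 for 59 of complexes II to V. The 13 mRNAs encoded by the mitochondrial genome had a median of 0.49. In these respiratory lists the medians were larger at 8 weeks, but no gene of these lists was called for a difference between times. The medians at 3 weeks were 0.095, 0.135 and 0.144 in that order, and those at 8 weeks 0.69, 0.71 and 0.77. The old 3-week skins differed among themselves, with complex I shares of 0.15%, 0.283% and 0.256%. Their shares of complexes II to V were 0.509%, 0.957% and 0.867%. Mitochondrial mRNAs took 5.05% to 7.6% of counts in the young skins, 5.8% to 6.47% in the old skins at 3 weeks and at least 7.72% in those at 8 weeks, so that the 8-week old skins lay above all others.

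Proteasome and chaperone genes followed. Of 58 proteasome genes 30 were higher and none lower before adjustment (median 0.32). Without the libraries with hepatocyte, testis or muscle counts, 16 of them were higher and none lower (median 0.34). Of 70 heat shock and chaperone genes 36 were higher and none lower (median 0.50), with medians of 0.70 at 3 and 0.31 at 8 weeks. Without the libraries rich in testis and muscle genes 30 chaperone genes were higher and none lower (median 0.37). With muscle content as a covariate 27 were higher and 1 lower (median 0.35). Without 36-month 3-week replicate 3, the library richest in muscle genes, the chaperone median was 0.375. The chaperonin subunit cct8 had 172, 182 and 208 CPM in the young and 228, 273 and 311 CPM in the old skins, without overlap. Its difference was 0.53 (SE 0.10, edgeR adjusted p = 0.0538).

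Transcript length moved with these lists. Within a library, the level of a gene relative to the mean of all libraries changed with gene length, and this slope was 0.00696 to 0.0724 in the young and -0.0949 to 0.0369 in the old skins, in log2 CPM per doubling of length. The mean slope differed by -0.056 (exact permutation test over the 1716 splits, two-sided p = 0.0326). Across sixths of length the median log2 difference went from 0.10 at a median of 902 bases to -0.087 at 5920 bases. The ribosomal and mitochondrial lists held short genes, with medians of 819 to 1040 bases in 4 of them, and the collagens long ones, with a median of 4990 bases. With the trend taken out of each library the medians were 0.32 for cytosolic ribosomal proteins, 0.37 for the mitochondrial ribosome and -0.30 for the collagens. The medians with the trend left in were 0.36, 0.43 and -0.38 in that order. Collagens lower before adjustment went from 19 to 13 with the trend removed. Over all genes 2261 were then higher and 1820 lower before adjustment, against 2079 and 2059. Of the 50 called genes 34 were called. This setting was added after the data were seen, and the cause of the trend was not tested.

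**Figure D3:**
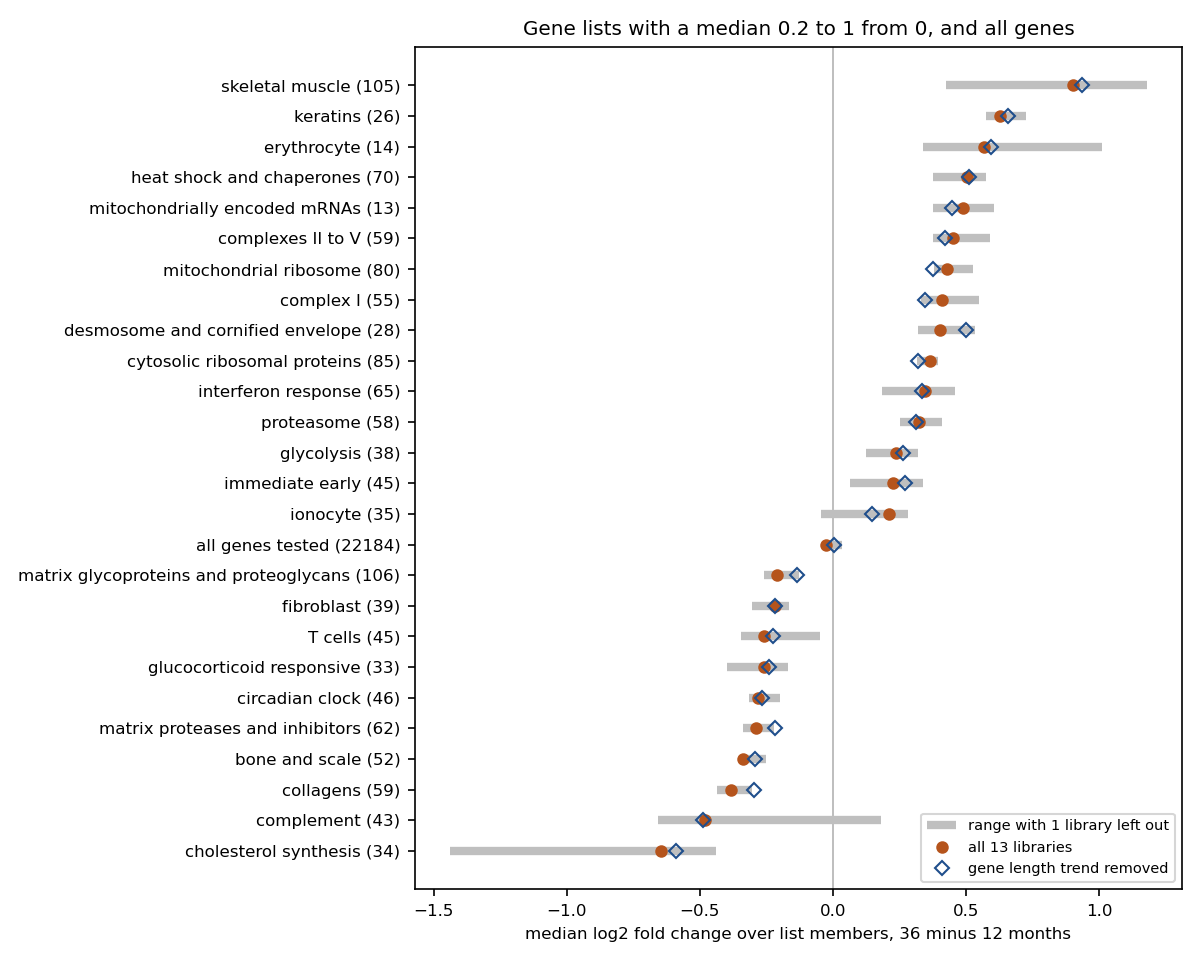
Median log2 difference (36 minus 12 months) of gene lists with a median 0.2 to 1 away from 0, and of all genes, with the number of genes in brackets. Dots use all 13 libraries, grey bars span the medians with 1 library left out and diamonds have the length trend removed; the hepatocyte list, at a median of -2.53, lies outside the axis.

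Lists of other tissues moved with single libraries. Of 105 skeletal muscle genes 102 were above 0, with 21 higher before adjustment and a median log2 difference of 0.90. Muscle creatine kinase ckma had a mean of 1990 CPM at 12 and 5730 CPM at 36 months. Without 36-month 3-week replicate 3 the median was 0.42. The hepatocyte median was -2.53, and 0.82 without 12-month 3-week replicate 1. The testis median was -0.082, and 2.17 without 12-month 3-week replicate 2. With muscle content as a covariate 35 genes were called, and 41 of the 50 were called without the libraries rich in testis and muscle genes.

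Pigment cell lists were near 0, with medians of 0.058 for 32 melanophore, 0.13 for 22 iridophore and -0.12 for 18 xanthophore genes. The iridophore receptor kinase ltk had 9.01, 11.2 and 13.2 CPM in the young and 6.68, 7.13 and 8.66 CPM in the old skins. Its difference was -0.59 (SE 0.12, edgeR adjusted p = 0.0607), without overlap. Slc24a5, a cation exchanger needed for melanin, differed by -1.39 (SE 0.33, edgeR adjusted p = 0.0783). Proliferation genes had 1 of 130 higher and 1 lower before adjustment, with a median of 0.17, but 39 higher and 1 lower, with a median of 0.61, without the libraries rich in testis and muscle genes. Without 36-month 8-week replicate 3 the proliferation median was -0.05 and without 12-month 3-week replicate 2 it was 0.76. The p53 target, arrest and apoptosis genes had 7 of 82 higher and 5 lower, with a median of 0.028. Circadian clock genes had 9 of 46 lower and 1 higher (median -0.28), and genes of growth hormone and insulin-like signalling 11 of 61 lower and 2 higher (median -0.14, and -0.09 without 36-month 3-week replicate 2), among them the growth hormone receptor ghra at -0.79 (SE 0.20, edgeR adjusted p = 0.0886).

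Within each sampling time, fewer genes were called. At 3 weeks 5 genes (0.0225%) passed. Higher were ywhaqb and krt17 (0.00902% of all genes) and lower caspbl, si:ch211-114l13.13 and stra6 (0.0135%). Stra6, a receptor that takes up retinol, fell by 2.58 (log2, edgeR adjusted p = 0.0124), and the keratin krt17 rose by 1.76 (log2, edgeR adjusted p = 0.0124). Without 36-month 3-week replicate 1 the count at 3 weeks was 439, without 36-month 3-week replicate 2 it was 48, without 36-month 8-week replicate 4 it was 13 and without 12-month 3-week replicate 1 it was 3. At 8 weeks 7 genes (0.0316%) passed, all lower: caspbl, CASKIN2 (3 of 4), si:ch211-114l13.13, si:ch211-114l13.4, zgc:162154, CR846080.1 and FP236513.2. That count was 13 without 12-month 3-week replicate 2, and 11 without 12-month 3-week replicate 3 or 36-month 8-week replicate 3.

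One gene differed in its age effect between the times. The level of zgc:162154 in the young skins was 0.0354, 0.0867 and 0.135 CPM at 3 weeks and 10.7, 8.72 and 9.8 CPM at 8 weeks. In the old skins it was 0.0333 to 0.0753 CPM at both times. The young skins at 8 weeks were thus the only control skins with more than a few counts, at 311, 269 and 298 counts. Its age effect was lower by 6.55 at 8 than at 3 weeks (log2, SE 0.75, adjusted p = 0.0402 in edgeR's interaction test), the 1 call among 22184 genes (0.00451%). Of the 13 fits with 1 library left out it passed only in those without 12-month 3-week replicate 1 or 3. As CPM without TMM, the young 8-week fish held 1.25, 1.69 and 1.3 CPM in brain and 1.58, 2.05 and 1.55 CPM in liver. Other controls held at most 0.102 and 0.229 CPM. Of the 36-month rotenone fish, 3-week replicates 1 and 4 and 8-week replicate 2 had 5.52, 8.87 and 24.1 CPM in skin. Their brains held 3.44, 3.79 and 3.62 CPM and their livers 2.23, 5.03 and 4.95 CPM. The other rotenone skins held at most 0.296 CPM. The cause was not tested.

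**Figure D4:**
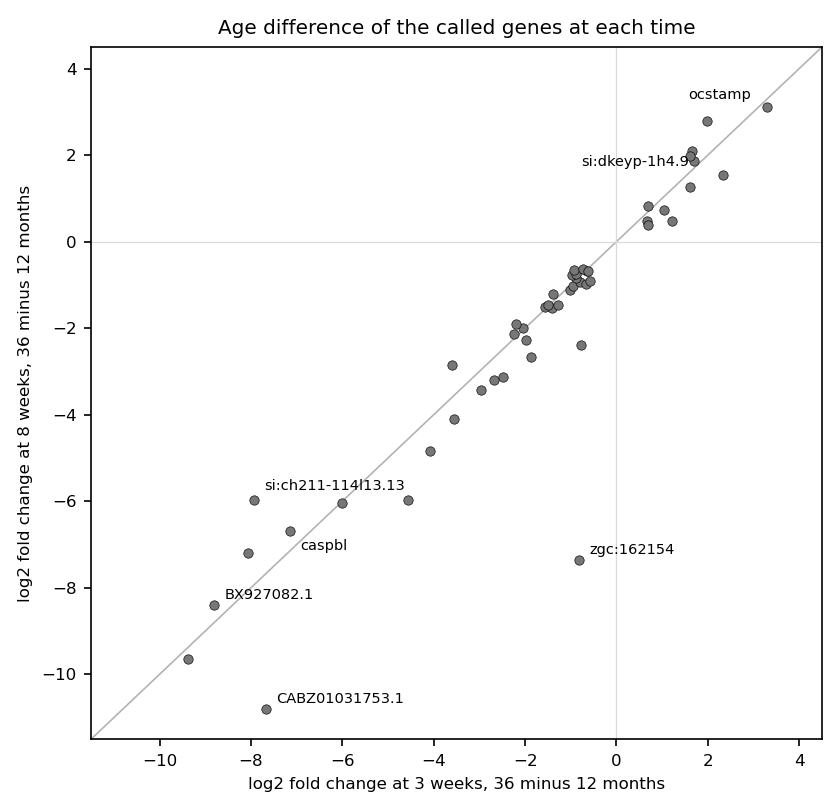
Age effect at 8 weeks against that at 3 weeks for the 50 called genes, as log2 differences (36 minus 12 months), with the line of equality. All 50 points share their sign on both axes, which their choice by the effect pooled over both times largely fixes. The gene zgc:162154 lies farthest from the line, 6.55 lower at 8 weeks.

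Brain and liver of the same fish showed which skin genes differed by age elsewhere too. In one fit over the 36 control libraries of all tissues and 25220 genes, age was called in 336 genes of brain (1.33%) and 2413 of liver (9.57%). Of the 50 skin genes 10 were called in brain and 20 in liver. Caspbl was among them in both tissues. It was at 0.974 to 1.49 CPM in the young brains and 0 to 0.0238 CPM in the old, and fell there by 7.63 (log2, edgeR adjusted p = 2.66e-07). In liver it was at 0.119 to 0.79 CPM in the young and at 0 in all 5 old livers. Msrab was at 2.6 to 5.31 CPM in the young brains and 0.71 to 1.45 CPM in the old. In the young livers msrab was at 5.1 to 11.3 CPM and in the old at 0.184 to 0.908 CPM.

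The difference between tissues was called in 56 genes for skin against brain (0.222%) and in 432 for skin against liver (1.71%), the latter 194 with the fish as a block. Among the 56 was si:ch211-114l13.1, from the clone of the genes near caspbl, at 6.26 (log2, SE 0.565, edgeR adjusted p = 3.9e-07). It fell in brain. Of the 50 skin genes the effect differed from that in brain for 5. These were BX927082.1 by -12.0, BX927082.2 by -10.2, zgc:171500 by -4.40, si:dkey-17e16.9 by -2.67 and ADAMTS2 (2 of 2) by -1.72 on the log2 scale, with edgeR adjusted p of 0.00117, 0.00189, 0.0257, 0.0177 and 0.0257. From liver it differed for si:dkey-17e16.9, by -2.87 (edgeR adjusted p = 0.0057), and zgc:100919, by 1.42 (edgeR adjusted p = 0.00702). Both BX927082 genes were near the floor in brain. BX927082.1 was at 0 to 0.0551 CPM in young and 0 to 0.558 CPM in old brains. BX927082.2 was at 0 to 0.0423 and 0 to 0.301 CPM. Their differences from brain include brain age estimates of 3.4 and 2.53 that rest on these low levels.

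A pair of genes was low in 1 young fish. The level of zgc:171497 was 49.3 to 98.3 CPM in 5 young skins and 4.34 CPM in 12-month 3-week replicate 3, against 2.56, 4.92 and 7.01 CPM in the old skins. The low young skin lay within the old group. The gene zgc:171497 fell by 3.85 (log2, SE 0.52, edgeR adjusted p = 0.012).

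For zgc:171497 that fish was low in brain too but not in liver, with levels given as CPM of each library without TMM. In the brains of the same 5 young fish, zgc:171497 was at 99.5, 90.3, 97.3, 109 and 111 CPM, and it was at 6.21 CPM in the brain of the fish with the low skin. The old brains held 3.39 to 7.7 CPM. The liver of the fish with the low skin lay inside the range of the other young livers, at 19.1, 20.6, 43.5 and 335 CPM, and the old livers were at 9.78 to 93.5 CPM. The gene zgc:171500, which is separated from zgc:171497 by 3 genes on GRCz12tu, had 7.24 to 18.9 CPM in those 5 young skins and 0.213 CPM in the same low one, against 0.109 to 0.451 CPM in the old. In the livers it was at 2.23 to 5.02 CPM in 4 young fish, at 0.174 CPM in that same fish and at 0 to 0.322 CPM in the old. The gene's pooled age effect in skin was a fall of 5.35 (log2, SE 0.73, edgeR adjusted p = 0.012).

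The 11 skins of 36-month fish from rotenone tanks had been kept with 3.75 nM rotenone, 5 for 3 weeks and 6 for 8 weeks. They would share the 12-month skins with the control comparison, so their values are set beside those of the controls and not tested here. In them, caspbl was at 0 to 0.0342 CPM in 7 fish, as CPM without TMM, and at 17.6, 21.6, 25.1 and 27 CPM in the other 4. The 4 fish were 3-week replicate 4 and 8-week replicates 2, 3 and 5. Their brains held 5.11, 4.5, 3.78 and 4.7 CPM and their livers 0.217, 0.508, 0.0844 and 0.157 CPM, in that order of fish. The other 7 fish had at most 0.0411 CPM in brain and, in the 6 with a liver library, 0.0295 CPM in liver. Caspbl was therefore clear in both skin and brain of a 36-month fish or at most barely detected in both, and the 36-month controls were all of the second kind. In liver the 4 fish lay above the other 36-month fish, but the lowest of them, at 0.0844 CPM, was near the floor. The cause was not tested.

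Of the genes near caspbl, si:ch211-114l13.13 was at 0 to 0.238 CPM in all 11 rotenone skins, without TMM, the 4 fish with caspbl included. In brain it was at 0.278, 3.36, 2.64 and 1.58 CPM in those 4 fish, in the same order, and at most 0.0568 CPM in the other 7. The control brains held at most 0.04 CPM. The skins of the 4 fish held 0.621, 2.04, 1.26 and 1.85 CPM of si:ch211-114l13.4, and those of the other 7 held 0.285 to 0.778 CPM. The highest levels of si:ch211-114l13.13 in brain and of si:ch211-114l13.4 in skin were thus in fish with caspbl. On the TMM scale, BX927082.1 reached 2.51 CPM at the highest in the rotenone skins, and zgc:171497 was at 2.04 to 7.25 CPM. BX323882.1, on that scale, was at 18.4, 28.3, 9.36 and 7.63 CPM in the 4 fish with caspbl, in the same order. The other 7 held 1.81 to 8.47 CPM of it. Msrab was at 1.88, 1.88, 0.572 and 4.38 CPM in those 4 fish and at 0.277 to 0.874 CPM in the other 7. CABZ01031754.1 was at 10.8 and 10.6 CPM in the rotenone skins of 3-week replicate 4 and 8-week replicate 5, as CPM without TMM, and at most 0.0356 CPM in the other 9. On the same scale AL929239.1 was at 2.52, 4.9 and 3.66 CPM in 3-week replicate 4 and 8-week replicates 2 and 3. The other rotenone skins held at most 0.535 CPM of it. On the TMM scale elovl5, at 13.7 to 30.2 CPM, spanned the levels of both ages of control. The gene si:ch1073-185p12.2, at 5.54 to 36 CPM on that scale, ranged from below the young controls into the range of the old ones.

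**Figure D5:**
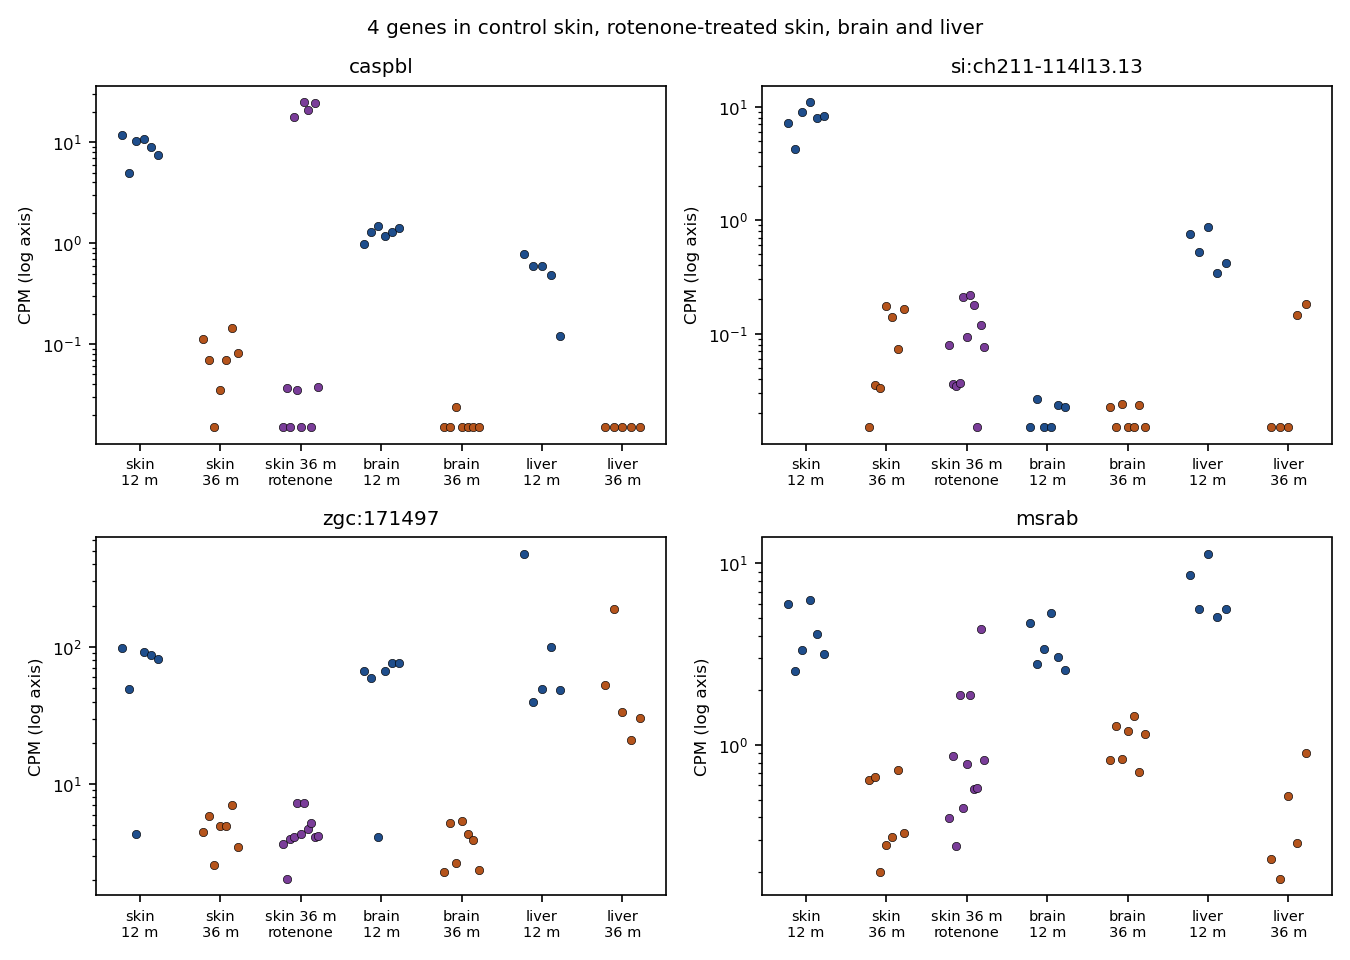
CPM on log axes of caspbl, si:ch211-114l13.13, zgc:171497 and msrab in skins of 12-month controls, 36-month controls and 36-month rotenone fish, and in control brains and livers, with 1 point per library and values of 0 at the bottom of the axis. In skin, caspbl is near 0 in all 7 old controls and in 7 of the 11 rotenone skins, and high in the other 4.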

How the data were processed

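Per the labels' protocols, total RNA was extracted with phenol and chloroform and went into a TruSeq kit. The authors deposited a table of raw counts, used for every test, and one of RPKM, used only for gene lengths. The submitters' processing notes name CASAVA 1.8.2. The aligner, the counter, its strand setting and the build were not given in the sources used, so overlapping and antisense genes are uncertain. Of 32677 genes, 21028 matched the name table. The rows of GRCz12tu in a RefSeq table gave gene order only.

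Groups came from sample titles. The 13 control skins were fitted with edgeR 4.0.16 in R 4.3.3, with TMM scaling and robust quasi-likelihood. FilterByExpr had a minimum count of 10 and a total of 15, and the Benjamini-Hochberg threshold was 0.05. The pooled age effect came from a fit with a term for age and a term for sampling time. Age effects at each time, and their difference between times, came from a fit with group means for age and time. Age effects in skin, brain and liver, averaged over times, were compared in a fit of all control libraries. Log2 CPM had a prior count of 2. Alternatives were RLE scaling, no filter, DESeq2 1.42.0, limma 3.58.1 voom, all 24 skins, libraries left out, muscle content, the length trend (spline with 4 degrees of freedom), no time term and a replicate block. The tests were checked on simulated data. Tables and figures used Python 3.11.15, pandas 2.3.3, scipy 1.17.1 and matplotlib 3.10.9.

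Titles carry a fish number that tissues share. Deviations from group means correlated at 0.055 to 0.268 between skin and brain of the same fish (13 fish) and -0.22 to 0.0248 between different fish; for skin and liver they were -0.0372 to 0.215 (10 fish) and -0.215 to 0.16. Skin replicate numbers paired nothing.

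Named genes were the called ones with a mean of at least 1 CPM and a proper gene symbol (no clone or accession name), up to 15 in each direction (4 rose, 18 fell), the 4 members of each of 59 lists with the smallest p, and the 6 leading genes of each tissue difference. Others were described after their values were seen. The members and lists were chosen with earlier results of these data known.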

Additional observations from a re-analysis of the deposited data

Results flagged for a closer look

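In 13 of 132 sets of values 1 skin lay far from the others of its age by Dixon's criterion for groups of 6 or 7, which chance gives in about 1 of 20 groups. Of the 36-month skins, 8-week replicate 1 stood apart in si:dkey-17e16.9 (2.56 CPM), 3-week replicate 1 in ocstamp (2.67 CPM), 8-week replicate 3 in ADAMTS2 (2 of 2) (5.11 CPM) and 3-week replicate 3 in sdk2b (11.8 CPM). In CABZ01031754.1 it was 8-week replicate 2 (0.0347 CPM) and in CABZ01031753.1 3-week replicate 3 (0.0333 CPM), each through a single count. Of the 12-month skins, 3-week replicate 2 stood apart in si:ch211-236p5.3 (6.94 CPM) and slc16a8 (31.7 CPM). Among shares of counts it was skeletal muscle in 36-month 3-week replicate 3 (18.1%), keratins in 36-month 8-week replicate 3 (11.1%), testis and germ cells in 12-month 3-week replicate 2 (0.304%), and hepatocytes (2.63%) and adipocytes (0.249%) in 12-month 3-week replicate 1.

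The age effect differed between groups, by a test of the difference itself in edgeR, for the following genes. That of zgc:162154 was -6.55 at 8 minus 3 weeks. Skin minus brain was -12.0 for BX927082.1, -10.2 for BX927082.2, -4.40 for zgc:171500, -2.67 for si:dkey-17e16.9 and -1.72 for ADAMTS2 (2 of 2) on the log2 scale. BX927082.1 and BX927082.2 were near the floor in brain. Under the rule for naming genes skin minus brain was -6.40 for btr19, -2.73 for lgals3bpa, -2.53 for p2rx1, -2.0 for NLRX1 (2 of 54), -1.79 for HDAC7 (2 of 2) and -1.01 for def6b. For the named genes before def6b, the age effects in brain were 4.88, 2.46, 2.37, 1.31 and 0.794, in that order. Those in skin in the same fit were -1.52, -0.271, -0.153, -0.686 and -0.991, so that these differences include rises in brain. Skin minus liver was -2.87 for si:dkey-17e16.9 and 1.42 for zgc:100919. Under the naming rule it was -9.49 for ODZ2 (2 of 3), -5.49 for MREG, -4.62 for kcnma1a, -2.06 for ARRDC3, 1.63 for dnajb6b and 3.2 for spock2.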

How the results depend on the processing

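The count of 50 genes was 29 without a filter on low counts, 1646 with DESeq2, 1607 with voom, 546 with all 24 skins fitted, 164 without the skins rich in testis and muscle genes and 30 without the time term. It ranged from 14 to 596 with 1 library left out. At 3 weeks 5 genes became 793 with DESeq2, 2 with voom, 82 with all 24 skins and 3 without the skins rich in testis and muscle genes, also when that with hepatocyte genes was left out too; with 1 library left out the range was 3 to 439. At 8 weeks 7 genes became 349, 1255, 24 and 19 with DESeq2, with voom and in the same 2 subsets, with a range of 5 to 13. The difference between the times, 1 gene, became 42 with DESeq2 and 0 with voom (1348 at an unadjusted p under 0.05), in those subsets (1408 and 768) and with muscle content as a covariate (1456), with a range of 0 to 1. Skin minus brain, 56 genes, gave 759 with voom and 25 to 128 with 1 skin left out. Skin minus liver, 432 genes, gave 80 with voom and 311 to 617. The causes were not tested.

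Replicate numbers within skin did not pair the samples (same-number correlations -0.317 to 0.0834), and the fit with a replicate block called 4 genes for age. With the fish as a replicate block skin minus liver gave 194 genes and skin minus brain 54.

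For single genes, 3286 values under the alternatives kept direction and side of the threshold, 527 lost the call, 305 gained it and none reversed. Of list medians 1407 moved by less than the spread between replicates and 9 by more. That spread was taken over all 13 libraries, so a library that stood apart widened it. The complement median went from -0.48 to 0.18 without 12-month 3-week replicate 1, within its spread of 1.06.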
